A study of Mus musculus with 2 samples.

Results

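The genes described here make and run the MHC class II route of antigen presentation, and their members were taken by symbol from the feature list of the deposited tables. All 8 symbols, H2-Aa, H2-Ab1, H2-Eb1, H2-DMa, H2-DMb1, Cd74, Ciita and Ctss, matched 1 row each of the 32285 genes listed. They were followed in single-cell RNA-seq of dorsal skin from male C3H/HeN mice shaved at 7 weeks of age and harvested at 9 weeks. Con mice received vehicle, and TP mice received testosterone propionate, an androgen, at 0.5 mg per day under the skin as a model of androgenetic alopecia (AGA), the androgen-driven loss of hair. Skin of 15 mice per group was pooled, so Con and TP are 1 library each and no value below has a replicate check. A TP group that also received an antibody against CXCL12 is not analysed here.

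Class II molecules are pairs of an α chain and a β chain that show peptides from the endosomes to CD4 T cells. H2-Aa and H2-Ab1 encode the chains of the molecule I-A, and H2-Eb1 encodes the β chain of I-E. Cd74 (ENSMUSG00000024610, on chromosome 18), the invariant chain, escorts new pairs to the endosome and fills their groove, cathepsin S (Ctss) trims it there, and H2-DMa with H2-DMb1 forms the exchange factor that swaps the last invariant chain fragment for peptide. Ciita is the master activator of this gene set and is itself made mainly in professional antigen-presenting cells. In skin these are the Langerhans cells of the epidermis and the dendritic cells and macrophages of the dermis, and interferon gamma can switch the set on in other cells.

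The libraries differed in depth and in the share of barcodes that failed the limits. Barcodes with 200 to 8000 genes and no more than 10% of mitochondrial UMIs, as the study required, were kept unless called doublets, which left 39076 Con and 18542 TP cells, with a median of 2050 unique molecular identifiers (UMIs, 1 per captured molecule) in Con and 4918 in TP. They held 106220920 and 134654122 UMIs. Over the mitochondrial limit lay 3465 of 45709 Con barcodes and 5871 of 25931 TP barcodes. The libraries shared 184 barcodes among kept cells. A level is given as UMIs of the gene per 1000000 UMIs (CPM), both added up over a cell class, and brackets give exact Poisson intervals for levels, exact conditional intervals for ratios and Clopper-Pearson intervals for shares, all at 95% and all for counting error only. The assay tags the end of a transcript and counts each molecule once, so levels were not divided by gene length, and ratios between genes are read only across classes. A gene was counted as different where its CPM ratio of TP over Con was at least 2-fold and both libraries together held at least 50 UMIs.

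Over all kept cells, the class II genes stood higher in the TP library, with the exception of H2-DMa. Cd74 lay at 28.5 CPM (27.4 to 29.5) in Con and 72.5 CPM (71.1 to 73.9) in TP, and TP over Con came to 2.55 (2.45 to 2.65). H2-Aa lay at 10.9 and 25.1 CPM, a ratio of 2.31 (2.16 to 2.47). Ctss showed the highest ratio of the 8, at 5.01 (4.51 to 5.58), with 3.78 CPM in Con and 18.9 CPM in TP. These 3 of 8 genes were at least 2-fold higher, where 8.23% of the 17575 genes tested were, and none of the 8 was at least 2-fold lower, where 10.7% were. The other chains lay between, with H2-Ab1 at 13.4 and 20.4 CPM (ratio 1.53, 1.43 to 1.63) and H2-Eb1 at 8.06 and 14.9 CPM (ratio 1.85, 1.71 to 2.00). The master activator Ciita was scarce, with 78 UMIs in Con and 149 in TP (ratio 1.51, 1.14 to 2.01). The exchange factor genes differed least, H2-DMb1 at 3.57 and 4.60 CPM (ratio 1.29) and H2-DMa at 9.45 and 8.28 CPM (ratio 0.876, 0.804 to 0.955). The median log2 ratio was 0.75 over the 8 genes and -0.24 over all genes tested. TMM factors, which correct for that shift, stood at 0.849 for TP over Con, and with them H2-Eb1 also passed 2-fold (2.18) while H2-DMa came to 1.03. With doublets kept, and with no limits on barcodes, H2-Eb1 passed 2-fold too (2.45 and 2.40) and Cd74 came to 3.15 and 3.08. With a mitochondrial limit of 20% they came to 1.83 and 2.52.

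Tyrobp, Fcer1g, Laptm5 and Ptprc, made mainly by blood-derived cells, were also higher in TP. The other blood genes used below, Cd52 and Coro1a, are not given here. Over all cells the TP over Con ratio was 5.43 for Tyrobp, 3.59 for Fcer1g, 3.17 for Laptm5 and 1.26 for Ptprc. Cells in immune-like clusters were 426 of the Con cells (1.09%) and 434 of the TP cells (2.34%). More immune cells and more class II RNA per cell are therefore separated below by class, with classes named from marker genes after clustering without the 8 genes or their pathway.

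Immune-like cells held most of the class II RNA although they were few. In TP they contained 82.9% (82.2 to 83.7) of the Cd74 UMIs, 79.9% of H2-Aa, 77.0% of H2-Eb1, 72.8% of H2-Ab1, 83.9% of Ciita and 89.2% (87.9 to 90.3) of Ctss. In Con the shares were lower for each gene, at 58.8% (57.1 to 60.6) for Cd74, 64.2% for H2-Aa, 53.2% for H2-Eb1 and 59.4% for Ctss. The I-A β chain was lowest among the chains in Con, where immune-like cells held 33.7% (31.2 to 36.2) of H2-Ab1, and dermal papilla-like cells held 44.7%. The exchange factor lay mostly outside the immune cells, with 8.57% of H2-DMa and 14.2% of H2-DMb1 in immune-like cells of Con, and 24.1% and 42.2% in TP. H2-DMa shares its locus with Brd2, which is read from the opposite strand and stood at 55.8 to 145 CPM in each class of each library with at least 1 UMI, and how the UMIs of the shared stretch were split was not tested.

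**Figure D1:**
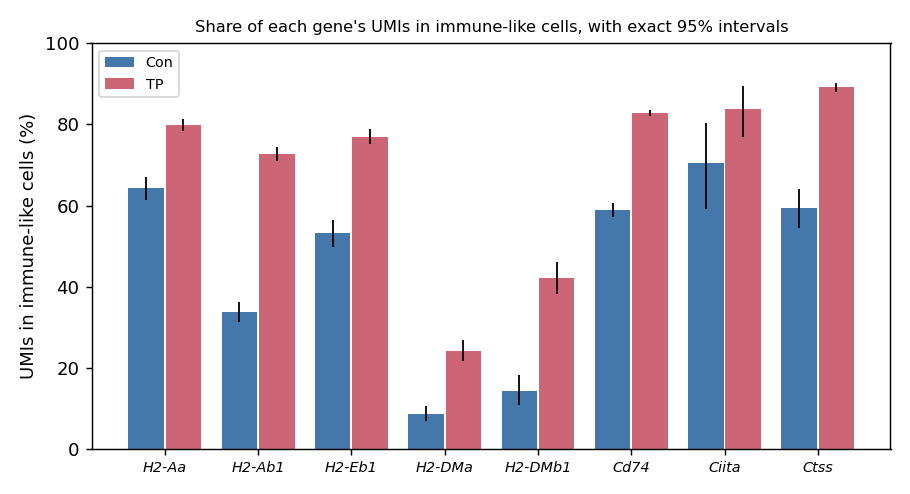
Share of the UMIs of each of the 8 genes that lay in immune-like cells (y axis, percent) for Con (blue) and TP (red), with exact Clopper-Pearson 95% intervals as black lines. Cd74 stands at 58.8% in Con and 82.9% in TP and Ctss at 59.4% and 89.2%, while H2-DMa is at 24.1% or less.

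Among the classes, the Langerhans-like and monocyte/dendritic-like cells stood apart from all others. Cd74 lay at 14440.5 CPM (13540.5 to 15384.7) in the 24 monocyte/dendritic-like cells of Con, at 13337 CPM in the 91 of TP and at 13362 CPM in the 25 Langerhans-like cells of Con, 3 levels whose neighbours in order did not differ beyond counting error. The 9 Langerhans-like cells of TP read 33502 CPM of Cd74, 10819.7 of H2-Aa, 8656 of H2-Ab1, 9855 of H2-Eb1 and 913 of H2-DMb1. These and the level of Ctss stood above those of the 25 Con cells, while Ciita, at 626 against 356 CPM, and H2-DMa, at 1278 against 867 CPM, did not differ between them beyond counting error, and no ratio is given for a class with under 20 cells in a library. H2-Aa lay at 6497 and 4644 CPM in monocyte/dendritic-like cells of Con and TP and at 5047 CPM in Langerhans-like cells of Con. H2-Ab1 lay at 4039.7, 3536 and 3446 CPM in the same 3 pools, and H2-Eb1 at 3361, 2490.3 and 4336 CPM. Ciita followed with 317, 202 and 356 CPM. These classes rested on their own markers: all 5 of the Langerhans list were detected in Langerhans-like cells, where Ccr2, Ly6c2, Plac8 and Chil3 of the monocyte list were at 0 in both libraries, and 10 of 10 dendritic markers were detected in the monocyte/dendritic-like cells of TP and 7 of 10 in Con.

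**Figure D2:**
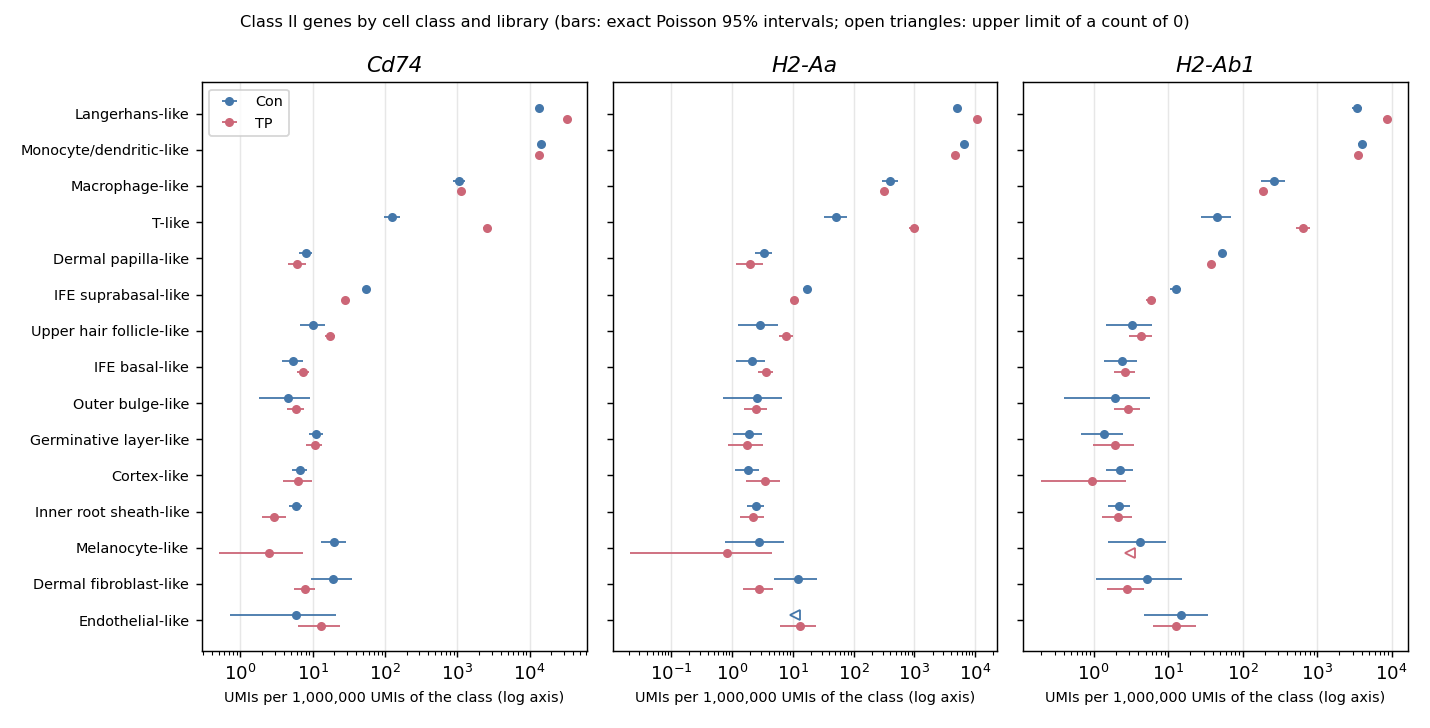
Levels of Cd74, H2-Aa and H2-Ab1 (x axis, CPM on a log axis) in 15 cell classes of Con (blue) and TP (red), with exact Poisson 95% intervals as lines and open triangles for the upper limit of a count of 0. Langerhans-like and monocyte/dendritic-like cells lie highest for all 3 genes, with the latter 12.0 to 18.7 times above macrophage-like cells, and H2-Ab1 alone lies high in dermal papilla-like cells, at 53.5 and 38.2 CPM.

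Macrophage-like cells carried far less class II RNA but a similar level of the protease. Cd74 lay at 1064 CPM (886 to 1266) in 67 Con cells and 1115 CPM (1054 to 1178) in 250 TP cells. The monocyte/dendritic-like level of Cd74 was 13.6 times (11.3 to 16.5) the macrophage-like level in Con and 12.0 times (11.3 to 12.7) in TP. For H2-Aa these factors were 16.0 and 14.7, for H2-Ab1 15.4 and 18.7, and for H2-Eb1 22.1 and 20.3. Most Con cells of the class were shallow, and against the subcluster led by C1qa alone the Con factors were 7.64 (6.02 to 9.83) for Cd74, 10.9 for H2-Aa, 9.17 for H2-Ab1 and 8.65 for H2-Eb1. That subcluster held 11 Con cells, and 6 of them had no UMI of any of these genes. For Ctss the factors against the whole class were 1.31 (0.958 to 1.77) in Con and 1.249 (1.14 to 1.37) in TP, and against the C1qa-led subcluster 0.737 (0.519 to 1.05) in Con, with 878 and 1281 CPM in macrophage-like cells. All 10 macrophage markers were detected in both libraries.

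Single cells spread widely within these classes. All of H2-Aa, H2-Ab1, H2-Eb1 and Cd74 were detected in 18 of 24 monocyte/dendritic-like cells of Con and 63 of 91 of TP, and none of them in 5 and 15. The sum of the 4 genes ranged from 0 to 607 UMIs per 10000 UMIs of a cell in Con (median 284) and from 0 to 746 in TP (median 171). Among macrophage-like cells the 4 genes were found together in 4 of 67 cells of Con and 22 of 250 of TP, with 43 and 107 cells at 0 for all 4, and the highest cell at 489 in TP. T-like cells were mostly negative, with 157 of 174 Con cells at 0 for all 4 genes. The 17 T-like cells of TP summed to 2556 CPM of Cd74, yet 13 of them were at 0, and 2 held all 4 genes with up to 438 per 10000. Macrophage markers summed to 6770 CPM in these 17 cells (10 of 10 detected) and T cell markers to 71.0 CPM (6 of 9, with Cd3d, Il2rb and Il7r at 0), against 988 and 4370 CPM in the Con cells of the class. The markers of the 17 cells thus went against their label, and the part of other cells in their Cd74 level was not tested.

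Within the immune classes the TP library was not uniformly higher. In monocyte/dendritic-like cells, H2-Aa had a TP over Con ratio of 0.715 (0.643 to 0.796), H2-Eb1 of 0.741 (0.640 to 0.861) and Cd74 of 0.924 (0.862 to 0.991), while Ctss stood at 1.40 (1.10 to 1.80). None of the 8 genes passed 2-fold in either direction there, where 15.3% of 1711 genes were higher and 1.52% lower. The median log2 ratio was -0.30 over the 8 genes and 0.13 over all genes tested. At a coarser immune clustering the class held 73 Con and 122 TP cells in place of 24 and 91, and the Cd74 ratio was 1.62 (1.52 to 1.74). The cells gained nearly match in number a macrophage-like subcluster led by Aoah, of 50 Con and 31 TP cells. That subcluster had a median of 972 UMIs and left the macrophage-like class there, so the 1.62 is not a ratio of the same cells.

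In macrophage-like cells, the ratios of the class II chains depended on which subclusters were counted. Over the whole class their intervals included 1. The ratio was 0.782 (0.577 to 1.08) for H2-Aa, 0.722 (0.494 to 1.09) for H2-Ab1, 0.806 (0.492 to 1.40) for H2-Eb1 and 1.05 (0.872 to 1.27) for Cd74. Ctss was higher in TP, at 1.46 (1.20 to 1.80). Of the 5 genes with enough UMIs none passed 2-fold over the whole class, where 8.56% of 4335 genes were higher and 6.07% lower. Ciita did not reach that number of UMIs, with 11 UMIs in Con (92.8 CPM) and 20 in TP (17.5 CPM). The class was not made up alike in both libraries. Of the Con cells 50 lay in a subcluster led by Aoah with a median of 972 UMIs and 11 in the subcluster led by C1qa, while of the TP cells 31 and 180 did. The Cd74 ratio depended on that make-up, with 0.778 (0.616 to 0.996) without the Aoah-led subcluster and 0.644 (0.508 to 0.827) in the C1qa-led subcluster alone. It was 1.71 (1.44 to 2.03) at a finer clustering, where a further subcluster of 16 Con and 18 TP cells joined the class. At the same step a T-like subcluster went from 94 Con and 17 TP cells to 78 and 6. In the C1qa-led subcluster all 3 chains lay below 1, with H2-Aa at 0.585 (0.384 to 0.936), H2-Ab1 at 0.461 (0.281 to 0.808) and H2-Eb1 at 0.330 (0.193 to 0.608), so that H2-Ab1 and H2-Eb1 were at least 2-fold lower there, from 17 and 15 UMIs in 11 Con cells, fewer than the 20 asked of a class. Of these 11 Con cells 6 had no UMI of H2-Aa, H2-Ab1, H2-Eb1 or Cd74. The sum of these genes had a median of 0 and a highest cell of 294 per 10000 UMIs. Of the 180 TP cells of the subcluster 61 were at 0, with a median of 2.19 and a highest cell of 489. Medians and ratios thus went opposite ways, and the part of single cells in the ratios was not tested. Without the Aoah-led subcluster H2-Eb1 stood at 0.406 (0.237 to 0.747) and Ctss at 0.979 (0.771 to 1.26). At the finer clustering H2-Eb1 lay on the other side of 1, at 1.31 (0.856 to 2.10), as it did with doublets kept, at 1.53 (0.953 to 2.62), and Ctss was 2-fold higher, at 2.34 (1.93 to 2.87).

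**Figure D3:**
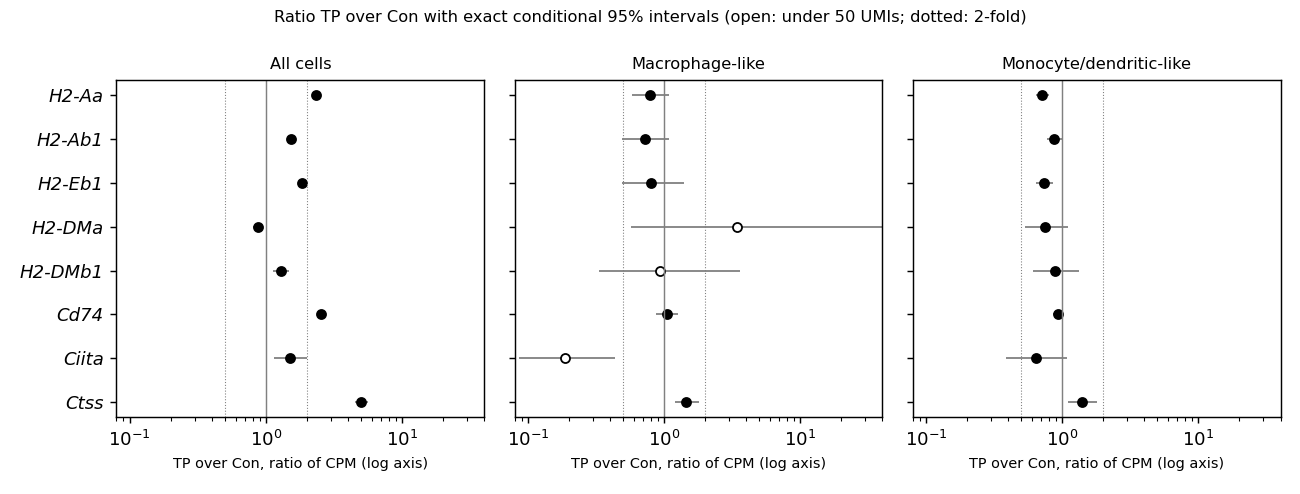
TP over Con ratio of CPM (x axis, log axis) for the 8 genes over all cells, in macrophage-like cells and in monocyte/dendritic-like cells, with exact conditional 95% intervals as lines, open circles for genes under 50 UMIs and dotted lines at 2-fold (intervals end at 40 where they run further). Over all cells Ctss, Cd74 and H2-Aa lie beyond 2-fold, at 5.01, 2.55 and 2.31, and within both immune classes no gene with enough UMIs does.

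The difference over all cells was then split by holding the class make-up fixed. With the class shares of the Con library in both, Cd74 differed by 0.66 on the log2 scale of a total of 1.35, H2-Aa by 0.56 of 1.21 and Ctss by 1.33 of 2.32. With the shares of the TP library in both, the same values were -0.0028, -0.24 and 0.59. The value at Con shares rested on 26 TP cells. Of the 16.4 CPM by which Cd74 was then higher in TP, the 17 T-like cells, whose markers went against their label, made up 10.6 CPM and the 9 Langerhans-like cells 8.53 CPM, with the other classes below 0 in sum. Without these classes the values were -0.19 for Cd74, -0.25 for H2-Aa and 0.46 for Ctss. The size of the part within classes, and for H2-Aa, H2-Ab1, H2-Eb1 and Cd74 its sign, thus depended on whose make-up was used.

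Outside the immune cells, H2-Ab1 and H2-DMb1 stood well above background in dermal papilla-like cells. These are the mesenchymal cells at the base of the follicle that instruct its growth. All 7 dermal papilla markers were detected, with a summed level of 16269.9 CPM in Con and 17308 CPM in TP, against 142 and 43.0 CPM in inner root sheath-like cells, the keratinocytes around the hair shaft, which served as the measure of free RNA. H2-Ab1 lay at 53.5 CPM (49.4 to 57.8) in 4083 Con cells and 38.2 CPM (34.2 to 42.6) in 1349 TP cells. That is 24.1 times (17.1 to 34.9) the inner root sheath-like level in Con and 18.02 times (11.5 to 29.9) in TP. Its partner chain H2-Aa lay at 3.37 and 2.00 CPM, which is 1.36 (0.854 to 2.17) and 0.900 (0.446 to 1.79) times that background. Cd74 lay at 8.004 and 6.13 CPM, against 5.84 and 2.97 CPM in inner root sheath-like cells. A single Con cell, which also had a UMI of Cd207, held 45 of the 95 Cd74 UMIs of the class. Ciita had 3 UMIs in Con and 1 in TP.

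The exchange factor genes also lay above that background. H2-DMb1 lay at 15.7 CPM in Con and 18.2 CPM in TP, 11.2 times (7.19 to 18.3) and 24.5 times (11.6 to 61.9) the inner root sheath-like level. H2-DMa lay at 16.6 and 15.6 CPM, 1.94 and 2.77 times that level. H2-DMb2, a near copy of H2-DMb1 with which it could share reads, lay at 4.13 and 3.42 CPM, against 0.127 CPM in inner root sheath-like cells of Con and a count of 0 in TP. H2-Eb1 stood at 4.72 CPM in both libraries, 2.48 (1.56 to 3.999) and 2.97 (1.60 to 5.78) times background.

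Set against Cd74, the pattern of dermal papilla-like cells differed from that of the presenting cells. They held 6.68 H2-Ab1 UMIs per Cd74 UMI (5.38 to 8.38) in Con and 6.23 (4.64 to 8.52) in TP. In cells without a UMI of 6 blood genes, which left out the Con cell rich in Cd74, the values were 12.7 (9.45 to 17.4) and 6.18 (4.56 to 8.54). The clusters of the class read 14.3 (9.65 to 21.9) and 10.6 (5.33 to 23.8) in one and 3.68 (2.80 to 4.88) and 5.33 (3.83 to 7.56) in the other. The Con value of 3.68 includes the Con cell rich in Cd74, and no value without it was computed for that cluster. In TP the intervals of both clusters overlapped. Langerhans-like cells held 0.258 in both libraries, and monocyte/dendritic-like cells 0.280 and 0.265. In the suprabasal cells of the interfollicular epidermis (IFE), the epidermis between the follicles, the ratio was 0.230 and 0.211. The H2-Ab1 signal was spread over cells, with a UMI in 431 Con and 193 TP cells, of which 2 and 1 cells held 10 UMIs or more. After thinning every cell to 1000 UMIs, 4.14% (3.52 to 4.83) of 3719 Con cells and 3.18% (2.28 to 4.30) of 1258 TP cells had a UMI, against 0.325% and 0.286% of inner root sheath-like cells. Unthinned shares were 10.6% and 14.3% at median depths of 2436 and 5192 UMIs, and 0.531% and 1.67% of inner root sheath-like cells at 2036 and 4837 UMIs.

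**Figure D4:**
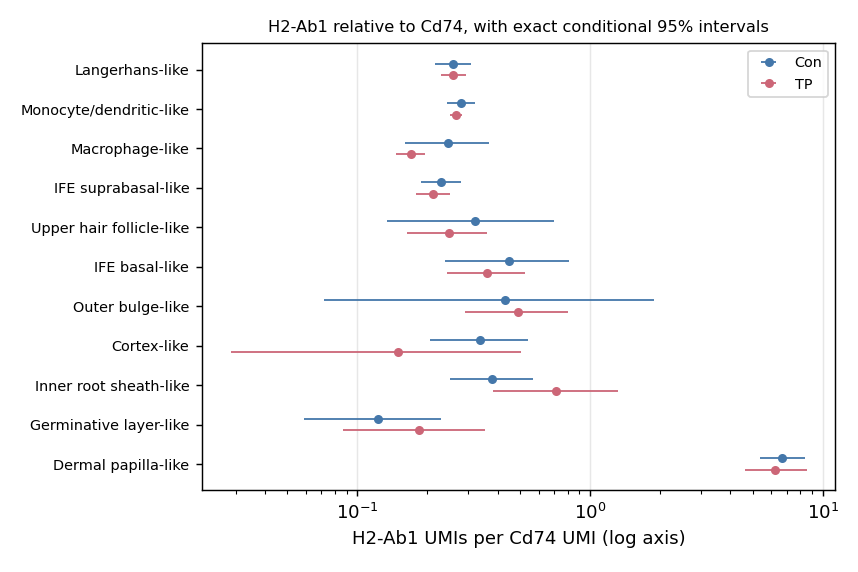
H2-Ab1 UMIs per Cd74 UMI (x axis, log axis) in 11 cell classes of Con (blue) and TP (red), with exact conditional 95% intervals as lines. Dermal papilla-like cells lie at 6.68 and 6.23 and the other classes between 0.122 and 0.714.

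The H2-Ab1 level was nearly as high in cells with no blood gene UMI. In dermal papilla-like cells without a UMI of Ptprc, Tyrobp, Fcer1g, Laptm5, Cd52 and Coro1a, genes of blood-derived cells, H2-Ab1 lay at 52.1 CPM in 4040 Con cells and 38.2 CPM in 1298 TP cells, and Cd74 at 4.10 and 6.18 CPM. Of the macrophage list 8 of 10 genes in Con and 9 of 10 in TP were detected, at 65.8 and 48.0 CPM, with Fcgr1 and Trem2 at 0 in Con and Adgre1 at 0 in TP, and the list stood at 198 and 216 CPM in inner root sheath-like cells. Of the dendritic list 5 and 6 of 10 genes were detected, at 44.7 and 57.2 CPM, mostly Fscn1 (34.3 and 44.3 CPM), with Clec9a, Xcr1 and Ccr7 at 0 in both libraries. Of the Langerhans list 5 of 5 genes in Con and 4 of 5 in TP were detected, at 109 and 75.6 CPM, with Cd207 at 0 in TP. Of the monocyte list 5 and 3 of 5 were detected, at 4137.7 and 6857 CPM, nearly all of it Vcan, which is also a dermal papilla marker. Of the B cell list 2 and 3 of 5 genes were detected, at 0.337 and 0.943 CPM, with Cd79b at 0 in both libraries. Of the T cell list 9 and 6 of 9 were detected, at 14.0 and 8.84 CPM.

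Between the libraries, H2-Ab1 in dermal papilla-like cells had a TP over Con ratio of 0.714 (0.623 to 0.818). The class joined 2 clusters, of which 1 read 72.3 CPM in 2263 Con cells and 72.8 CPM in 329 TP cells, and the other 38.2 CPM in Con and 31.9 CPM in TP. The ratio was 1.01 (0.795 to 1.26) within the first and 0.836 (0.696 to 1.00) within the second. The second cluster made up 1820 of 4083 cells of the class in Con and 1020 of 1349 in TP. The ratio was 1.16 (0.930 to 1.44) for H2-DMb1, 0.938 (0.746 to 1.18) for H2-DMa, 1.00 (0.649 to 1.53) for H2-Eb1 and 0.766 (0.536 to 1.09) for Cd74. The Con count of Cd74 includes the single cell rich in Cd74. In cells with no blood gene UMI, which left that cell out, Cd74 had 48 UMIs in Con and 49 in TP. Its CPM was then higher in TP. No interval was computed for this Cd74 difference, so it is not said to lie beyond counting error. H2-Aa lay at 3.37 and 2.00 CPM, a ratio of 0.595 (0.316 to 1.07). Within the second cluster H2-Aa read 0.456 (0.222 to 0.896), from 28 and 14 UMIs, and Cd74 0.577 (0.384 to 0.858). The Con cell rich in Cd74 lay in this cluster, since the first held 27 Cd74 UMIs in Con, fewer than that cell alone. In 1 Con cell of the class H2-Aa, H2-Ab1, H2-Eb1 and Cd74 were all detected. The part of single cells in these 2 values was not tested. Over the class none of the 6 genes with enough UMIs passed 2-fold, where 3.75% of 12849 genes were higher and 7.66% lower.

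Most members lie together on chromosome 17. On GRCm38.p6, by the RefSeq annotation, the span from H2-DMa (ENSMUSG00000037649, chr17:34119693-34139101) to H2-Eb1 (ENSMUSG00000060586, chr17:34305867-34316674) also holds H2-DMb1 (ENSMUSG00000079547, chr17:34153191-34160229), H2-Ab1 (ENSMUSG00000073421, chr17:34263227-34269418) and H2-Aa (ENSMUSG00000036594, chr17:34282744-34287823). H2-Ab1 and H2-Aa are neighbours among the coding genes. Ciita (ENSMUSG00000022504) lies at chr16:10480014-10531064 and overlaps Dexi, and Ctss (ENSMUSG00000038642) lies at chr3:95526786-95556405.

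Class II promoters carry a conserved block of boxes, of which the Y box holds the letters of a CCAAT box read on the other strand and binds the factor NF-Y. The letters TGATTGG were searched on both strands of RefSeq windows from 250 bases before to 50 bases after an annotated start, and 7.82% of all 32851 windows held them. Windows were given for 5 of the 8 members, of which 3 held the letters, and for 4 other class II genes (H2-Oa, H2-Ob, H2-Eb2 and H2-DMb2), all 4 of which did. The stretches from 110 to 31 bases before the start are printed for the 3 members with the letters, so that the chain genes and an exchange factor gene can be set side by side. The windows of H2-DMa lie inside the gene's span and not before its first base, and are not printed or read further. They read 5′ to 3′ along the strand of the gene with TGATTGG in capitals, and come from chr17:34287854-34287933 (minus strand, H2-Aa), chr17:34305757-34305836 (plus strand, H2-Eb1) and chr17:34153081-34153160 (plus strand, H2-DMb1).
H2-Aa: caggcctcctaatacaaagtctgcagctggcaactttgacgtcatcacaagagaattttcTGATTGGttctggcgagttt
H2-Eb1: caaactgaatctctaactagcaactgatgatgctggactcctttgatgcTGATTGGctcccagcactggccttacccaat
H2-DMb1: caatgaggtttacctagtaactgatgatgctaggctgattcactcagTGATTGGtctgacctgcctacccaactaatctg

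The letters began 50 bases before the start in H2-Aa, 61 in H2-Eb1 and 63 in H2-DMb1. H2-Aa and H2-DMb1 both carry them, yet their levels in dermal papilla-like cells stood at 1.36 and 11.2 times background in Con. A match is a description of the sequence and no measure of binding in these cells.

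Across all classes the chains and the invariant chain nonetheless went together. Over the 31 pools of 1 class in 1 library with at least 20 cells, each of H2-Aa, H2-Eb1 and Cd74 had a Pearson r of 0.972 to 0.980 with the mean log2(CPM + 1) of the other three of the group they form with H2-Ab1, and H2-Ab1 an r of 0.903. Against the mean of those 4 genes, Ciita had an r of 0.944, Ctss 0.937, H2-DMb1 0.909 and H2-DMa 0.832. The 10 genes of highest r among 17571 were Hepacam2 (0.971), Cd180 (0.948), Rnase6 (0.944), Ciita, Ctss, Cd209c (0.934), Kynu (0.934), Il7r (0.932), Gpr183 (0.928) and Cd86 (0.927). Pools of 1 library share that library and differ in depth, so these values describe the pools and carry no test.

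In suprabasal IFE-like cells, the class II level came from few cells. Cd74 lay at 55.4 CPM (50.9 to 60.2) in 1162 Con cells and 28.1 CPM (26.2 to 30.02) in 1735 TP cells, a ratio of 0.506 (0.454 to 0.565), with H2-Aa at 0.612, H2-Eb1 at 0.476 and H2-Ab1 at 0.466. The last 2 were at least 2-fold lower, 2 of the 7 genes with enough UMIs, where 12.4% of 11774 genes were. The TMM factor of the class was 0.826 for TP over Con. With it H2-Eb1 came to 0.576 (0.472 to 0.706), short of 2-fold, and the value of H2-Ab1 was not computed. Cells with at least 10 Cd74 UMIs numbered 12 in Con and 6 in TP and held 83.9% and 68.3% of the Cd74 UMIs of the class. Of these, 8 and 6 cells also had a UMI of Cd207, which marks Langerhans cells. In cells with no UMI of the blood genes, Cd74 lay at 9.86 CPM in Con and 9.21 CPM in TP, and the ratio became 0.934 (0.723 to 1.22). In the same cells the ratio was 1.34 (0.869 to 2.14) for H2-Aa, 0.966 (0.614 to 1.55) for H2-Eb1 and 0.556 (0.354 to 0.880) for H2-Ab1, from 37 and 47 UMIs. With called doublets kept the Cd74 ratio was 1.05 (0.956 to 1.16). At a finer clustering, where the class held only 187 Con and 701 TP cells, it was 3.72 (2.33 to 6.32) and that of H2-Eb1 2.66. Without blood gene UMIs, then, H2-Ab1 still lay lower in TP beyond counting error and the other 3 genes did not differ beyond it. That holds for the totals as counted, and TMM factors were not applied to these cells. Lacking a blood gene UMI also depends on depth, and cells of this class had a median of 7749 UMIs in Con and 14519 in TP. The cells left were therefore not a matched selection, and the effect on these ratios was not tested.

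In upper hair follicle-like cells, which line the mouth of the follicle, Cd74 lay at 10.1 CPM (6.73 to 14.6) in 1056 Con cells and 17.5 CPM (14.7 to 20.7) in 1410 TP cells, a ratio of 1.73 (1.14 to 2.69). H2-Aa lay at 2.89 CPM, from 8 UMIs, and 7.86 CPM, from 62 UMIs, a ratio of 2.72 (1.30 to 6.57). At clustering resolution 2, where a sebaceous gland-like cluster of 572 Con and 651 TP cells split off, the ratio was 5.04 (1.28 to 43.6) for H2-Aa and 1.49 (0.760 to 3.18) for Cd74. At the resolution used, H2-Aa was the 1 gene of 3 with enough UMIs past 2-fold, where 1.79% of 10439 genes were higher. H2-Ab1 lay at 3.26 and 4.31 CPM and H2-Eb1 at 2.53 and 2.79 CPM. Blood genes were also denser in TP, with 82 UMIs against 19, and Cd74 per blood gene UMI was 1.47 in Con and 1.68 in TP. In cells without any blood gene UMI, Cd74 stood at 10.4 and 15.7 CPM and its ratio at 1.51 (0.992 to 2.37), while H2-Aa kept a ratio of 2.32 (1.09 to 5.66). Background Cd74 in inner root sheath-like cells was 5.84 and 2.97 CPM.

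**Figure D5:**
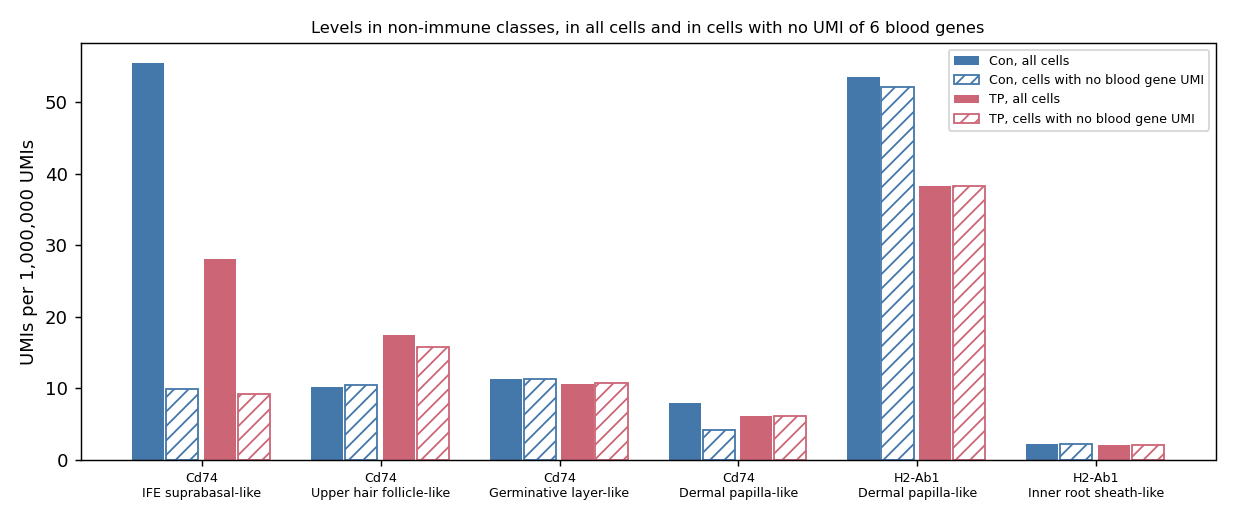
Levels (y axis, CPM) of Cd74 in 4 non-immune classes and of H2-Ab1 in 2, in all cells (filled) and in cells with no UMI of 6 blood genes (hatched), for Con (blue) and TP (red). Without cells that held a blood gene UMI, Cd74 of suprabasal IFE-like cells in Con stands at 9.86 CPM in place of 55.4 CPM, and H2-Ab1 of dermal papilla-like cells at 52.1 in place of 53.5 CPM.

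Cd74 was also found apart from its partners in germinative layer-like cells, the keratinocytes of the hair bulb that build the hair. It lay at 15.9 CPM (12.6 to 19.9) in 1555 Con cells and 15.3 CPM (11.3 to 20.2) in 377 TP cells of the cluster led by Kcnip1, Tnf and Shh, and at 4.11 and 4.81 CPM in the other germinative cluster. H2-Aa in the Shh cluster was at 1.86 and 1.59 CPM, and H2-Ab1 at 1.65 and 1.91 CPM, both near background. Over both clusters 78 Con cells and 58 TP cells had a Cd74 UMI, with at most 4 in a cell. Cells without blood gene UMIs gave 11.3 and 10.7 CPM against 11.2 and 10.6 CPM in all cells. The libraries did not differ in Cd74 beyond counting error (ratio 0.946, 0.670 to 1.33), and of the 2 genes with enough UMIs none passed 2-fold, where 2.3% of 11150 genes were higher and 2.5% lower.

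In the other keratinocyte-like classes Cd74 was low. In basal IFE-like cells Cd74 lay at 5.36 and 7.39 CPM (ratio 1.38, 0.945 to 2.05), and none of 5 genes passed 2-fold, where 1.55% of 11425 genes were higher and 3.79% lower. In outer bulge-like cells, which hold the follicle's stem cells, Cd74 lay at 4.52 and 5.84 CPM, with 0 of 2 genes past 2-fold, where 3.6% of 10925 were higher and 4.08% lower. In inner root sheath-like cells Cd74 had a ratio of 0.508 (0.320 to 0.783), and 0 of 4 genes passed 2-fold, where 4.67% of 11895 were higher and 5.58% lower. Melanocyte-like cells held 28 Cd74 UMIs in Con, 12 of them in 1 cell, and 3 in TP. In dermal sheath cup-like cells of TP 19 of 20 Cd74 UMIs lay in 1 cell, and in dermal fibroblast-like cells of Con 10 of 11 did. Neutrophil-like cells of TP held 5 Cd74 UMIs in 35 cells, a level of 105 CPM (34.2 to 245). Endothelial-like cells, which line the vessels, held 10 UMIs each of Cd74, H2-Aa and H2-Ab1 in 217 TP cells, 12.9 CPM (6.20 to 23.8), and 2, 0 and 5 UMIs in 125 Con cells.

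The wider pathway was followed through 33 further genes, of which 29 had enough UMIs over all cells. TP exceeded Con 2-fold or more in 7 and lay below it by as much in 0, beside 8.23% and 10.7% of all genes tested, with a median log2 ratio of 0.35 beside -0.24. They were the costimulatory Cd86 (ratio 3.98, 3.23 to 4.95), Cd83 (3.19), a surface protein that keeps class II from being degraded, and Cd40 (2.73), the ligase March1 (2.82) that sends class II for degradation, the protease Ctsh (2.78), and Irf1 (2.65) and Jak1 (2.08) of the interferon gamma axis. None of the 7 promoter factors passed, with ratios from 0.536 for Rfx5 to 0.998 for Rfxap. The receptor chain Ifngr1 stood at 1.59. Scaled by TMM factors 11 genes passed 2-fold.

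Within macrophage-like cells, 9 of 18 pathway genes passed 2-fold upwards in TP and 0 downwards, beside 8.56% and 6.07% of all genes, with a median log2 ratio of 0.88 against -0.08 over all genes tested. Cd83 lay at 59.1 CPM, from 7 UMIs, in Con and 734 CPM in TP (ratio 12.4, 6.003 to 30.997), and Irf1 at 76.0 and 410 CPM (5.40, 2.82 to 11.9). The thiol reductase Ifi30, which opens disulfides of antigens, had a ratio of 2.84 (1.61 to 5.56), Ctsl of 2.45, Ctsh of 2.21, Ctsb of 2.02, Jak1 of 2.47, Irf8 of 2.31 and Cd86 of 2.26. Con cells of the class were shallow, with a median of 1398 UMIs against 4491, and came mostly from another subcluster than those of TP. In monocyte/dendritic-like cells 3 of 15 were higher (Ctsl 6.70, Cd86 5.90 and Lgmn 2.01), each from 10 or fewer UMIs in Con, a share near the 15.3% of all genes.

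In dermal papilla-like cells 1 of 25 pathway genes passed 2-fold upwards and 1 downwards, near or below the 3.75% and 7.66% of all genes. Irf1, an interferon-induced activator, lay at 13.5 and 66.0 CPM (ratio 4.90, 4.10 to 5.88), and its relative Irf8 at 22.9 and 7.31 CPM (0.319, 0.238 to 0.422). Ifi30 lay at 32.6 and 17.2 CPM (0.528, 0.433 to 0.640) and Cd83 at 14.8 and 13.4 CPM. Irf1 was also at least 2-fold higher in germinative layer-like cells (3.29) and outer bulge-like cells (5.12, from 6 UMIs in Con), and lower in suprabasal IFE-like cells (0.461). In inner root sheath-like cells 3 of 22 pathway genes were higher, Cd83 (7.44), Ctsh (3.70) and Jak1 (2.18), beside 4.67% of all genes. In upper hair follicle-like cells 0 of 21 pathway genes passed, beside 1.79% of all genes higher and 2.53% lower, and in basal IFE-like cells 0 of 21, beside 1.55% and 3.79%, counts near those shares.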

How the data were processed

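Con and TP skin was measured as 1 droplet library each. The authors ran Cell Ranger 8.0.1 on mm10, per the submitters' processing notes, and deposited UMI counts per gene and barcode without normalization, before their filters. mm10 is the genome of C57BL/6J, whose class II haplotype differs from that of C3H mice, and H2-Ea was not in the feature list. How this affects each gene's count was not tested.

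The study's limits were applied, and its doublet procedure was rewritten, with the 7.5% of barcodes of highest score removed. Seurat 5.3.0 (R 4.3.3) integrated both libraries by reciprocal PCA on 2000 variable genes and 30 components, without the 8 genes or their pathway, and clustered at resolution 1. Immune clusters were clustered again with 20 components at 0.6. Clusters were named where marker scores reached 1.25 and further conditions on detected markers, leading genes and depth were met. These rules were set with the clusters in view. Unnamed cells numbered 15564 in Con and 5405 in TP, among them a cluster that scored 6.75 for smooth muscle or pericyte. UMIs were summed per class and library. With 1 library per group no test was planned or run, and no p-value or standard error is given. edgeR 4.0.16 gave TMM factors only, and the rest was computed in Python 3.11.15 (scipy 1.17.1, pandas 2.3.3 and numpy 2.4.6). Counts drawn with known folds were used to test the ratios on simulated data. A count of 0 is read with the limit that 3 counts allow.

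The genes named are the 8 members, pathway genes with at least 50 UMIs in the comparison, the 10 genes of highest correlation, markers and blood genes. Members and lists were chosen with earlier results of these data known. Levels depend on depth: cells under 1000 UMIs, left out where cells were thinned, numbered 5362 in Con and 858 in TP. A deeper cell is more likely to show a blood gene UMI, so cells without one were not matched in depth between the libraries.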

Additional observations from a re-analysis of the deposited data

Results flagged for a closer look

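Pairs of classes in which a gene had ratios on opposite sides of 1, each with an interval that left out 1, were taken as differing between groups. H2-Aa had a TP over Con ratio of 2.72 (1.30 to 6.57) in upper hair follicle-like cells and 0.612 (0.507 to 0.742) in suprabasal IFE-like cells. In suprabasal IFE-like cells with no blood gene UMI, where 28 of 171 Con UMIs remained, the ratio was 1.34 (0.869 to 2.14). Cd74 had a ratio of 1.73 (1.14 to 2.69) in upper hair follicle-like cells and 0.405 (0.204 to 0.878) in dermal fibroblast-like cells, where 10 of the 11 Con UMIs lay in 1 cell. The difference between the classes was not tested, since each class has 1 pool per library.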

How the results depend on the processing

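Of 145 alternative values, 85 were counted as unchanged, 59 as moved and 1, past 2-fold as reported, as turned in direction. Unchanged meant within the interval of the value reported or within 1.5 times its count, where it had either. Some alternatives repeated a value and are no separate checks. The share of Cd74 in immune-like cells was the same at clustering resolutions 0.5 and 2 as reported. So was the Cd74 ratio of monocyte/dendritic-like cells at an immune subclustering of 1. In macrophage-like cells, leaving out the Aoah-led subcluster gave the same values as subclustering at 0.3. Differences between libraries in the mean log level per cell were judged by sign alone. That sign went against the ratio for H2-DMa over all cells (0.00997 beside 0.876). It also did for H2-Ab1, H2-Eb1 and H2-DMb1 in macrophage-like cells (0.00795, 0.0841 and 0.0449, with ratios below 1). The parts within classes had no interval of their own. The value that turned was H2-Eb1 in suprabasal IFE-like cells at clustering resolution 2 (2.66). Values under 2-fold also changed side, among them Cd74 in the same class at that resolution (3.72), and those of Cd74 in immune classes and of the part within classes given here. For Cd74 in macrophage-like cells the ratio was 1.42 with doublets kept, 0.778 and 1.71 at immune subclusterings of 0.3 and 1, and, in alternatives chosen after seeing the data, 0.644 in the C1qa-led subcluster and 0.778 without the Aoah-led one. For Cd74 in monocyte/dendritic-like cells it was 1.62 at 0.3, where the class held 73 Con and 122 TP cells in place of 24 and 91. The share of Cd74 in immune-like cells of TP was 75.5% with doublets kept. The thinned share of dermal papilla-like cells of Con with H2-Ab1 was 2.06% at 500 and 7.93% at 2000 UMIs, as deeper cells show more. The part of the Cd74 difference within classes was -0.0028 on the log2 scale with TP shares and, in alternatives added later, 0.76 over single clusters and -0.19 without T-like and Langerhans-like cells. The pathway count was 11 with TMM factors. H2-Ab1 and H2-DMb1 in dermal papilla-like cells moved within their intervals under all 5 alternatives, which were chosen after seeing the data. Of the 10 genes of like pattern, 7 remained with log2(CPM + 10). Except where the construction shows it, the cause was not tested. No paired analysis was possible because each group has 1 library. Differences between mice, pools and library preparations cannot be told apart from TP.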
